A study of Oryctolagus cuniculus with 36 samples.

Results

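The liver makes most of the complement and clotting proteins of the blood. Their transcripts were followed in RNA sequencing of rabbit (Oryctolagus cuniculus) livers from a study of CRISPR/Cas9 gene correction in newborns with hereditary tyrosinemia type I, a disease caused by loss of fumarylacetoacetate hydrolase (FAH). The genes were chosen as a list of 41 symbols, with no measured value in the rule. Of these, 35 had a row under their symbol among the 23394 genes of the deposited table: 15 of 18 complement genes, 13 of 14 clotting factor genes, and 7 of 9 genes of anticoagulants and fibrinolysis. All 35 passed the filter on low counts. C8G, MASP2, PROZ and SERPINA10 are not analysed here, and C4BPA and F13B, whose rows carry other identifiers, are described apart from the 35.

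The titles place 36 liver libraries in 3 groups of 12: FA, FK and WT. The labels do not spell out FA and FK, give no age, strain, allele or treatment for any group, and describe all 36 samples, WT included, as an HT1 model. They say only that the livers came from treated rabbits, were trypsinized and were extracted with TRIzol, so what sets FA apart from FK is known by name alone. Each group has 3 numbered sets of 4 libraries, and the 4 were summed to 1 replicate, so that n = 3 per group. Nothing in the labels ties sets to separate animals, and the spread that p-values are measured against is that between sets, which may not be that between animals. Levels are CPM, counts per M counts after scaling, and are not divided by gene length, so that only values of the same gene are compared. The values of a group are those of its replicates 1, 2 and 3, in that order.

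Complement is a cascade of proteases. The classical pathway starts from C1, whose proteases are C1R and C1S, and the lectin pathway from sugar-binding lectins such as MBL2 with the protease MASP1. Both cleave C4 and C2 to build an enzyme that splits C3, the step at which the alternative pathway with factor B joins, and C5 to C9 then assemble a pore in the target membrane. In coagulation a chain of proteases leads to thrombin, which turns soluble fibrinogen into fibrin. Antithrombin, heparin cofactor II and the protein C system restrain thrombin, and plasmin dissolves the clot. Hepatocytes secrete most of these proteins, factor VIII comes mainly from endothelial cells, and in many mammals the fibrinogen genes are raised by interleukin-6 through STAT3 in the acute phase response.

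FAH, the gene lost in the disease, had 25.7, 24.7 and 19.6 CPM in FA and 16.4, 11.8 and 14.6 in FK, against 237, 271 and 218 in WT, so that FAH was low in every FA and FK replicate. The replicates of FK were unlike. Across 14939 genes, FK replicates 1 and 2 correlated with each other at r = 0.963 but with the other 7 replicates at 0.821 to 0.856, while FK replicate 3 reached 0.958 to 0.970 with FA. The 13 erythroid markers found (of 14) summed to 383 to 929 CPM in FA, 7072, 16653 and 633 in FK and 649.9 to 2467 in WT. The 9 neutrophil markers (of 10) summed to 18.9 to 41.7 in FA, 1306, 2447 and 27.8 in FK and 15.1 to 26.9 in WT. The 8 platelet markers (of 11) summed to 3.13 to 5.54 in FA, 102, 85.9 and 4.12 in FK and 5.93 to 8.27 in WT. Blood-lineage transcripts were thus high in FK replicates 1 and 2 alone, and MMP8, a neutrophil marker, was at 0 in 3 replicates and TREML1, a platelet marker, in 2. The 12 hepatocyte markers (of 13) summed to 294531, 231785 and 251635 CPM in FA, 225705, 155892 and 241169 in FK and 207774, 262287 and 274137 in WT. Every replicate thus carried the liver's own transcripts, and FK replicate 2 had the lowest sum. ALB alone made up 85068 CPM of that sum, against 159014, 214591 and 218584 CPM in WT. The markers did not move together. In FK replicate 2, 7 lay below all WT replicates and 5 above, and in FK replicate 1, 6 lay below and 6 above. In bulk tissue fewer hepatocytes and less RNA per hepatocyte cannot be told apart, and the part of the blood-lineage transcripts in the values below was not tested.

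**Figure D1:**
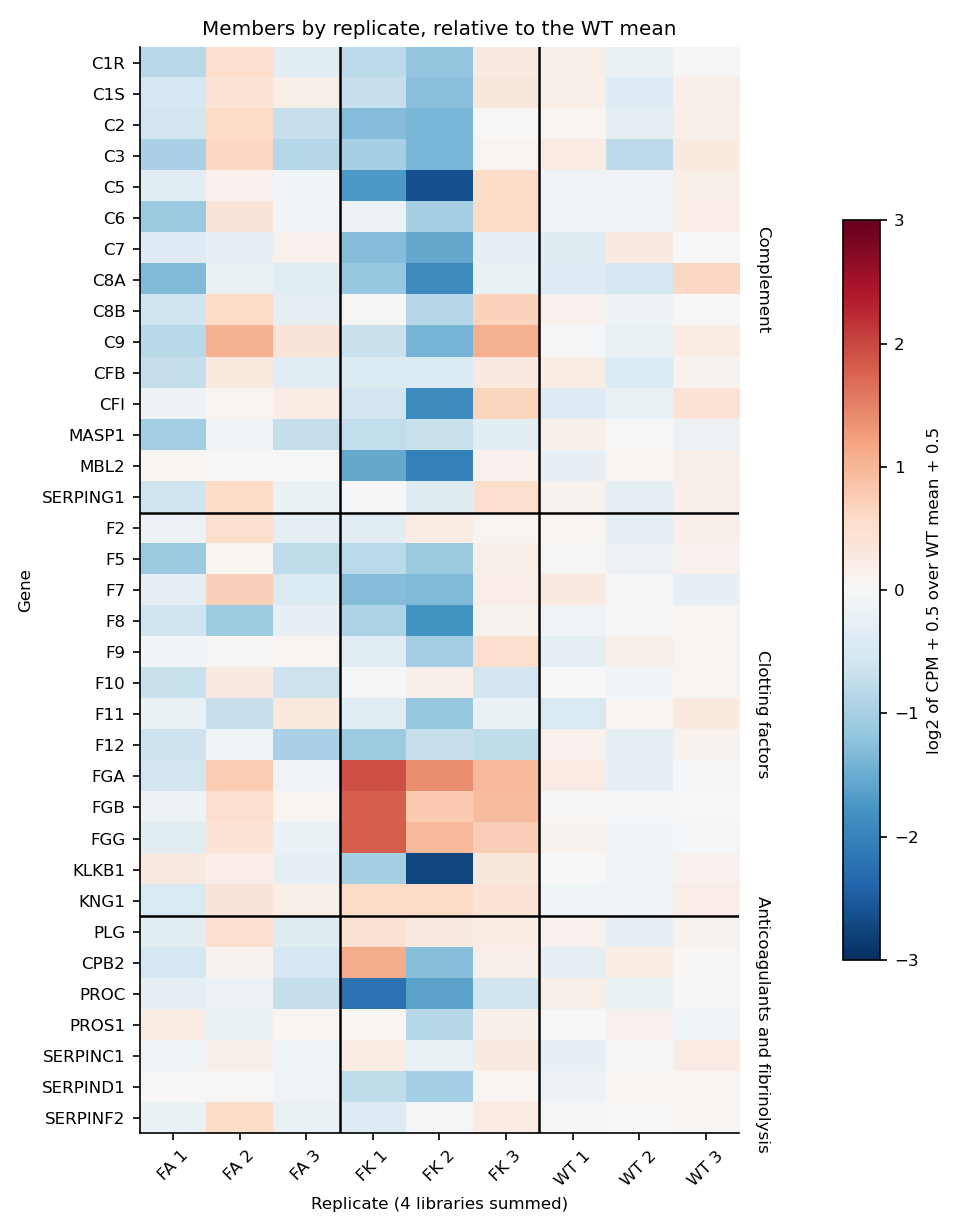
Level of each of the 35 genes in the FA, FK and WT replicates as log2 of the ratio to the WT mean (colour, blue below and red above that mean). Genes are in rows by class and replicates in columns. Most complement rows are blue in FK replicates 1 and 2 and red in FK replicate 3 and FA replicate 2, and the 3 fibrinogen rows are red in all FK replicates.

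The 3 fibrinogen genes stood higher in every FK replicate than in WT, at 167% to 384% of the WT mean, while most complement genes, with F7, KLKB1, PROC and SERPIND1, stood lower in FK replicates 1 and 2. None of the 35 genes was called in any comparison by edgeR's quasi-likelihood test at an adjusted p under 0.05, where 4.77% of all 14939 genes were called between FK and WT, 0.167% between FA and WT and 0% between FA and FK. Before adjustment, 6 of the 35 had a p under 0.05 between FK and WT (26.9% of all genes), 0 between FA and WT (10.2%) and 3 between FA and FK (21.9%). The fitted log2 changes in FK had a median of -0.42 for complement, -0.17 for clotting factors and -0.041 for anticoagulants and fibrinolysis, against 0.051 over all genes. DESeq2 called 5 of the 35 between FK and WT (16.5% of all genes), 0 between FA and WT (2.09%) and 3 between FA and FK (11.1%). Limma-voom on the 36 libraries called 15 between FK and WT (19.1%), 1 between FA and WT (3.7%) and 11 between FA and FK (16.8%). That fit takes 1 correlation between libraries of a set, 0.758, for all genes. Where the sets of a gene differ more than this allows, the 4 libraries count partly as separate replicates and p is too small. The spread was wide: over the 35 genes the median coefficient of variation between replicates was 32% in FA, 51.2% in FK and 14.6% in WT, against 5.37% between the 4 libraries of a set. Between libraries of a set it ran from 0.324% to 42.4%. In FK replicate 2 it was 36.3% for FGG, 27.1% for FGB and 11.2% for FGA. With the unlike FK replicate 3 left out, 14 of the 35 were called between FK and WT, against 34.9% of all genes, and these were 5 of 15 complement genes, 7 of 13 clotting genes and 2 of 7 others. Of the 14, 3 rose (18.7% of all genes rose) and 11 fell (16.2% fell). That fit sets 2 replicates of FK, those with the blood-lineage transcripts, against 3 of WT. Between FA and WT, 0 of the 35 were called in that fit, against 1.6% of all genes. Without FK replicates 1 and 2 the FK group is 1 replicate, assumed to vary like the other groups, and that fit is used below for the size of a change alone.

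Within FK and within FA most complement genes were high or low in the same replicates. The median of the 15 genes lay at -0.61, 0.39 and -0.21 in FA and -0.73, -1.36 and 0.27 in FK, as log2 of the ratio to the WT mean. The same medians were -0.33, 0.26 and -0.26 in FA and -0.33, -0.68 and 0.20 in FK for clotting factors, and -0.21, 0.11 and -0.22 in FA and 0.047, -0.86 and 0.17 in FK for anticoagulants and fibrinolysis, while over all genes they were between -0.025 and -0.00093. FK replicate 3 was the highest of the FK replicates for 15 of 15 complement genes, 6 of 13 clotting genes and 5 of 7 others, against 41.8% of all genes. FA replicate 2 was the highest of the FA replicates for 12, 9 and 5 genes of the 3 classes, against 37.7% of all genes. FK replicates 1 and 2 both lay below all WT replicates for 12 complement, 6 clotting and 3 other genes, 21 of the 35, where 29.4% of the 14939 genes did. FK replicate 3 did not lie below WT for 18 of these 21, nor for 2389 of the 4394 such genes of the table.

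**Figure D2:**
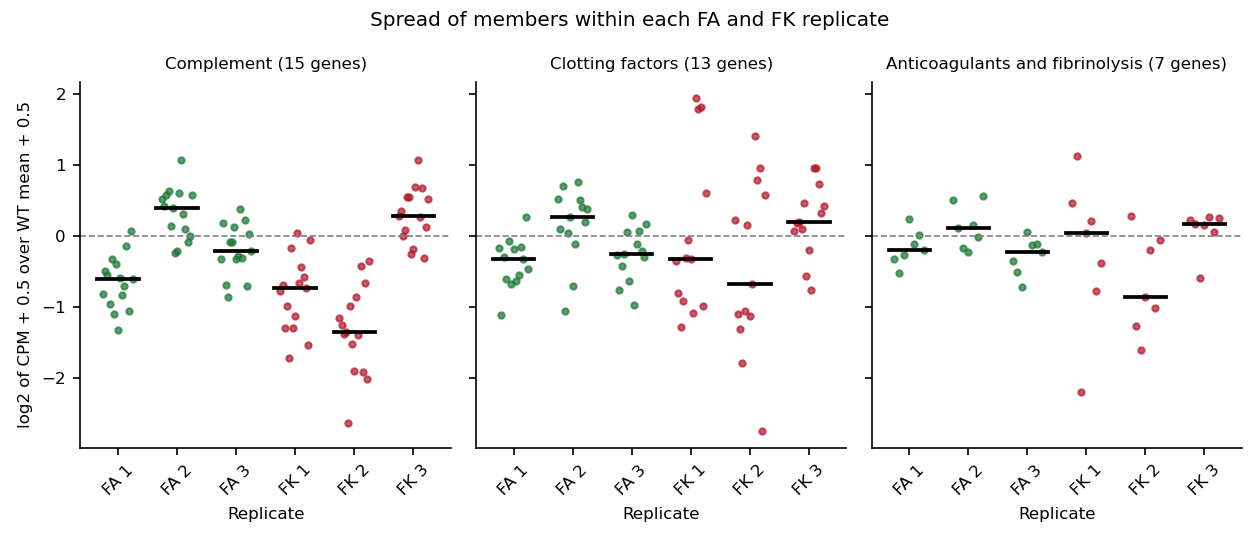
Log2 of the ratio to the WT mean for each gene (points) in the FA and FK replicates, by class, with the class median as a bar. The complement median is lowest in FK replicate 2, at -1.36, and highest in FA replicate 2, at 0.39.

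The 3 classical pathway genes were low in FK replicates 1 and 2 and within or above the range of WT in replicate 3. C1R stood at 971, 2467 and 1372 CPM in FA, 1002, 771 and 2075 in FK and 1940.4, 1464 and 1745 in WT. The C1S level was 1208, 2277 and 1934 CPM in FA, 1051, 713 and 2167 in FK and 1913, 1305 and 1903 in WT. C2 had 445, 974 and 406 CPM in FA, 264, 251 and 655 in FK and 679, 541 and 743 in WT. C1R and C1S are the proteases of the C1 complex, and C2, cleaved by C1S, supplies the protease of the C3 convertase. In FK all 3 genes were highest in replicate 3 and lowest in replicate 2. In FA replicate 2 was the highest and replicate 1 lay below WT for each of them. C2 was among the genes that fell without FK replicate 3 (log2 change -1.36, SE 0.40, adjusted p = 0.0271).

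In the lectin pathway MBL2 was low in FK replicates 1 and 2 and MASP1 in all 3 FK replicates. MBL2 stood at 937, 891 and 908 CPM in FA, 307, 220.4 and 974 in FK and 750.4, 930.1 and 1002 in WT. MBL2 encodes mannose-binding lectin, and in FK replicates 1 and 2 it stood at 34.3% and 24.6% of the WT mean, while FA lay within the range of WT. Without FK replicate 3 it fell (log2 change -1.78, SE 0.26, adjusted p = 0.00103). The MASP1 level was 112, 219 and 143 CPM in FA, 140.3, 148 and 188 in FK and 259, 233 and 208 in WT. MASP1, the lectin-bound protease, was the 1 complement gene whose 3 FK replicates all lay below WT, where 13.4% of all genes did. The log2 change of MASP1 in FK was -0.56 (SE 0.28, adjusted p = 0.235). For FA it was -0.56 (SE 0.28, adjusted p = 0.531), and neither passed the threshold. In limma-voom on the 36 libraries, with the set as a random effect, MASP1 was called lower in both groups (adjusted p = 0.00670 in FK and 0.0182 in FA). The limit of that fit given above, 1 correlation for all genes, holds for these calls.

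C3, on which all 3 pathways meet, and CFB, the protease of the alternative pathway, varied widely in WT itself. C3 had 1559, 4693 and 1672 CPM in FA, 1534, 1183 and 3217 in FK and 3617, 1765 and 3736 in WT. CFB stood at 743, 1502 and 985 CPM in FA, 896, 911 and 1458 in FK and 1425, 910.0 and 1319 in WT. For both genes FA replicate 2 was the highest of all 9 replicates, and WT replicate 2 stood well below the other WT replicates. A difference between groups was not detectable at this spread, with log2 changes of -0.62 (SE 0.60, adjusted p = 0.544) for C3 and -0.16 (SE 0.38, adjusted p = 0.820) for CFB in FK.

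The 6 terminal pathway genes ranged widely within FK. The C5 level was 1163, 1600.0 and 1374 CPM in FA, 444, 234 and 2126 in FK and 1350.0, 1378 and 1648 in WT. C5, whose cleavage starts the membrane pore, stood in FK replicates 1 and 2 at 30.4% and 16.1% of the WT mean and in FK replicate 3 above every other replicate. Its change over all 3 FK replicates, -0.64 (SE 0.70, adjusted p = 0.595), averaged these extremes, and without FK replicate 3 it fell (log2 change -2.13, SE 0.34, adjusted p = 0.00156), the largest fall of the 35 genes in that fit. C6 had 248, 696 and 503 CPM in FA, 473, 268 and 778 in FK and 498, 489 and 610.2 in WT. C7 stood at 9.37, 10.4 and 13.7 CPM in FA, 4.76, 4.00 and 10.4 in FK and 9.58, 15.2 and 12.6 in WT. C6 and C7 bind in turn to cleaved C5, and C7 was the complement gene with the smallest p between FK and WT, at -0.97 (SE 0.37, adjusted p = 0.14). C7 was measured by 264 to 945 counts per replicate, and its FK replicate 3 lay inside the range of WT. Without that replicate C7 fell (log2 change -1.53, SE 0.27, adjusted p = 0.00269). The C8A level was 197, 428 and 393 CPM in FA, 226, 131 and 434 in FK and 378, 343 and 762 in WT. C8B had 294, 677 and 365 CPM in FA, 458, 244 and 720.3 in FK and 487, 403 and 447 in WT. C9 stood at 705, 2639 and 1636 CPM in FA, 791, 475 and 2632 in FK and 1218, 1076 and 1475 in WT. C8A and C8B encode chains of C8 and C9 forms the ring of the pore. C8A stood at -0.91 (SE 0.52, adjusted p = 0.294) in FK, and WT replicate 3 stood well above all other replicates. Without WT replicate 3 the change of C8A was -0.48, and without FK replicate 3 it fell (log2 change -1.49, SE 0.47, adjusted p = 0.0374). Limma-voom called C8A lower in FK (log2 change -1.02, SE 0.28, adjusted p = 0.00674). C9 was high in FK replicate 3 and, at nearly the same level, in FA replicate 2.

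Of the complement inhibitors, CFI cleaves C3b and C4b, and SERPING1, the C1 inhibitor, blocks C1R, C1S, plasma kallikrein and factor XIIa. The CFI level was 882, 1037 and 1133 CPM in FA, 650.1, 256 and 1556 in FK and 749, 851 and 1317 in WT. SERPING1 had 867, 1958 and 1142 CPM in FA, 1262, 1032 and 1892 in FK and 1422, 1068 and 1465 in WT. CFI was lowest in FK replicate 2, at 26.4% of the WT mean. SERPING1 stood at 95.7%, 78.2% and 144% of the WT mean in FK, where C1R stood at 58.4%, 44.9% and 121%. Neither differed between groups beyond the spread of replicates, with changes of -0.24 (SE 0.58, adjusted p = 0.819) and 0.082 (SE 0.41, adjusted p = 0.920) in FK.

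The fibrinogen genes went the other way from most of the list. FGA, FGB and FGG encode the 3 chains that form fibrinogen in equal number, and all 3 stood higher in every FK replicate than in any FA or WT replicate. FGA stood at 4641, 11465 and 6264 CPM in FA, 26065, 17944 and 13219.9 in FK and 8036, 5713 and 6616 in WT. The FGB level was 8403, 13302 and 9804 CPM in FA, 32382, 16171 and 18143 in FK and 9524, 9200.2 and 9357 in WT. FGG had 6089.9, 10136 and 6611 CPM in FA, 26894, 14872 and 12715 in FK and 8196, 7223 and 7472 in WT. FK replicate 1 was the highest of all 9 for each chain, at 384%, 346% and 352% of the WT means for FGA, FGB and FGG. FK replicate 3, which has few blood-lineage transcripts, was also above WT, at 195%, 194% and 167%. The log2 changes in FK were 1.49 (SE 0.56, adjusted p = 0.135) for FGA, 1.25 (SE 0.53, adjusted p = 0.175) for FGB and 1.25 (SE 0.52, adjusted p = 0.169) for FGG. These did not pass edgeR's threshold. DESeq2 called all 3 (adjusted p = 0.00404, 0.00296 and 0.00609), as did the fit without FK replicate 3 (adjusted p = 0.0148, 0.0221 and 0.0160), and without FK replicates 1 and 2 the changes were 0.93, 0.92 and 0.70. In FA the 3 chains lay below WT in replicate 1, near it in replicate 3 and above it in replicate 2, with changes from -0.0034 to 0.17.

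**Figure D3:**
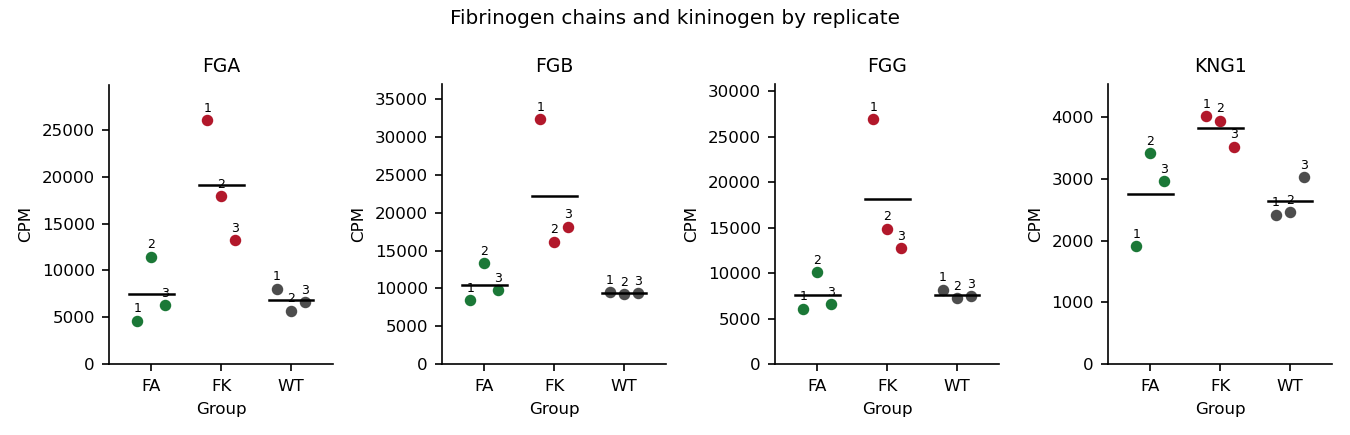
CPM of FGA, FGB, FGG and KNG1 in each replicate (points) of FA, FK and WT, with the mean of the group as a line. All FK points lie above all FA and WT points for each of the 4 genes.

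KNG1, which encodes the kininogens that carry bradykinin and serve as cofactor of contact activation, was the 1 other clotting gene whose FK replicates all lay above WT. KNG1 stood at 1909, 3420.5 and 2963 CPM in FA, 4014, 3945 and 3522 in FK and 2419.8, 2458 and 3027 in WT. Together with PLG this made 5 genes of the 35 with all FK replicates above WT, or 14.3%, near the 13.9% of all genes. The FK replicates of KNG1 were close to each other, and its change was 0.54 (SE 0.37, adjusted p = 0.380). Limma-voom called KNG1 higher in FK than in WT (log2 change 0.51, SE 0.16, adjusted p = 0.0210) and lower in FA than in FK (adjusted p = 0.0335). The limit of that fit given above holds for these calls.

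Of the other contact system genes, F12 and KLKB1 were low in FK replicates 1 and 2. The F11 level was 248, 174 and 348 CPM in FA, 225, 129 and 247 in FK and 207, 297 and 346 in WT. F12 had 113, 162 and 88.6 CPM in FA, 82.3, 109 and 103 in FK and 192, 145 and 187 in WT. KLKB1 stood at 344, 328 and 232 CPM in FA, 144, 42.1 and 360.1 in FK and 285, 261 and 314 in WT. F12, the protease that starts contact activation, had all 3 FK replicates below WT, as had 13.4% of all genes. Its change of -0.84 (SE 0.26, adjusted p = 0.0898) had the smallest p of the clotting class. DESeq2 called F12 lower (adjusted p = 0.0232), as did the fit without FK replicate 3 (adjusted p = 0.0433). KLKB1, the plasma prekallikrein that factor XIIa activates, fell without FK replicate 3 (log2 change -1.65, SE 0.46, adjusted p = 0.0225). FK replicate 2 stood at 14.7% of the WT mean for KLKB1, the lowest such value of any gene and replicate of the list. FK replicate 3 stood above WT. F11, which factor XIIa and thrombin cleave, overlapped WT in FK, and of the 3 genes it alone had FA replicate 2 below WT.

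Of the vitamin K-dependent factors, F7 was low in FK replicates 1 and 2, while F2 lay on both sides of WT. The F2 level was 1355, 2189 and 1264 CPM in FA, 1200.2, 1783 and 1610.4 in FK and 1608, 1272 and 1708 in WT. F7 had 102, 206 and 93.2 CPM in FA, 51.1, 50.1 and 144 in FK and 151, 121 and 105 in WT. F2 is prothrombin, and its groups overlapped, at 0.0018 (SE 0.35, adjusted p = 0.997) in FK. F7, the factor that tissue factor binds, stood at 40.7% and 39.8% of the WT mean in FK replicates 1 and 2, and fell without FK replicate 3 (log2 change -1.33, SE 0.36, adjusted p = 0.0201). F9 stood at 475, 516 and 519 CPM in FA, 403, 242 and 695 in FK and 409, 569 and 528 in WT. The F10 level was 251, 483 and 259 CPM in FA, 385, 448 and 272 in FK and 402, 379.9 and 425 in WT. F9, missing in hemophilia B, and F10, which forms prothrombinase with factor Va, overlapped WT in both groups. F10 lay above WT in FK replicate 2 and below it in FK replicate 3.

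**Figure D4:**
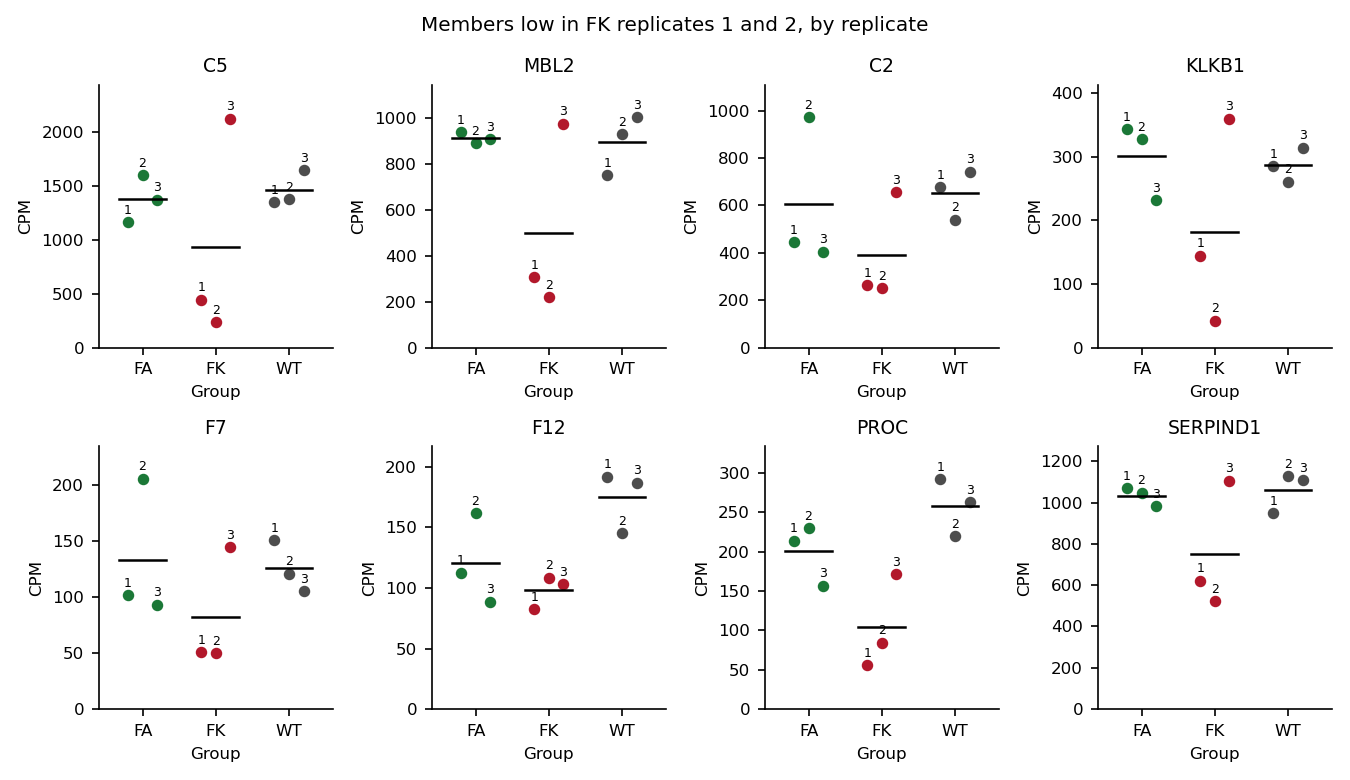
CPM of C5, MBL2, C2, KLKB1, F7, F12, PROC and SERPIND1 in each replicate (points) of FA, FK and WT, with the mean of the group as a line. In 6 of the 8 panels FK replicate 3 lies within or above the WT points while FK replicates 1 and 2 lie below them, and for F12 and PROC all 3 FK points lie below WT.

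Factors V and VIII are the cofactors of the clotting proteases. F5 had 418, 967 and 534 CPM in FA, 521, 421 and 1025 in FK and 928, 803 and 992 in WT. F8 stood at 32.8, 23.9 and 42.0 CPM in FA, 26.2, 14.1 and 54.0 in FK and 46.3, 51.5 and 52.9 in WT. F8, missing in hemophilia A, was the 1 gene of the 35 with all FA replicates below WT, where 12.4% of all genes were, and 0 had all FA replicates above WT (12.5%). For FA its change was -0.61 (SE 0.43, adjusted p = 0.681). For FK it was -0.68 (SE 0.43, adjusted p = 0.340), with FK replicate 3 above WT, and without that replicate F8 fell (log2 change -1.34, SE 0.31, adjusted p = 0.0100). Limma-voom called F8 lower in FK too (log2 change -0.94, SE 0.30, adjusted p = 0.0211). It was measured by 931 to 3267 counts per replicate. The 10 endothelial markers (of 11) also had a lower sum in every FA replicate than in WT, at 250.5, 208 and 171 CPM in FA, 399, 262 and 240.5 in FK and 323, 302 and 360.3 in WT. Below all WT replicates lay 7 of these 10 markers in FA replicate 1, and 9 in each of FA replicates 2 and 3. Their part in the F8 level was not tested. F5 was low in FA replicates 1 and 3 and in FK replicates 1 and 2, with a change of -0.50 (SE 0.44, adjusted p = 0.758) for FA and one of -0.47 (SE 0.44, adjusted p = 0.522) for FK.

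Among the anticoagulants PROC stood apart. Protein C, which PROC encodes, is cut by thrombin on the vessel wall and then inactivates factors Va and VIIIa. The PROC level was 214, 229.9 and 157 CPM in FA, 55.5, 84.3 and 171 in FK and 292, 219.6 and 263 in WT. All 3 FK replicates lay below WT, at 21.5%, 32.7% and 66.4% of the WT mean, with replicate 1 the lowest. Together with MASP1 and F12 this made 3 genes of the 35 with all FK replicates below WT, or 8.57%, against 13.4% of all genes. The change of PROC in FK, -1.31 (SE 0.40, adjusted p = 0.0803), had the smallest p of the 35 genes in this comparison, and edgeR did not call it. DESeq2 called it lower (adjusted p = 0.0133), and without FK replicate 3 it fell (log2 change -1.90, SE 0.29, adjusted p = 0.00121), whereas without FK replicates 1 and 2 the change was -0.62. PROS1 had 309, 224 and 272 CPM in FA, 272, 145 and 293 in FK and 261, 287 and 241 in WT. PROS1, whose product protein S is the cofactor of protein C, was low in FK replicate 2 and a little below WT in FA replicate 2, and its change was -0.15 (SE 0.30, adjusted p = 0.775).

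The 2 thrombin inhibitors differed. SERPINC1 stood at 3119.5, 3733 and 3066 CPM in FA, 3903, 2927 and 4037 in FK and 2845, 3227 and 4019 in WT. The SERPIND1 level was 1068, 1048 and 981 CPM in FA, 621, 522 and 1106 in FK and 949, 1128 and 1107 in WT. SERPINC1, antithrombin, overlapped in all groups, with a change of 0.11 (SE 0.36, adjusted p = 0.878) in FK. SERPIND1, heparin cofactor II, stood at 58.5% and 49.2% of the WT mean in FK replicates 1 and 2 and fell without FK replicate 3 (log2 change -0.91, SE 0.23, adjusted p = 0.0149). With all 3 FK replicates its change was -0.50 (SE 0.34, adjusted p = 0.372), and without FK replicates 1 and 2 it was 0.027.

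In fibrinolysis, PLG encodes plasminogen, the precursor of plasmin, SERPINF2 its inhibitor antiplasmin, and CPB2 the carboxypeptidase that slows clot lysis. PLG had 1795, 3190.2 and 1755 CPM in FA, 3093, 2733 and 2640.2 in FK and 2449, 1871 and 2432 in WT. CPB2 stood at 338, 523 and 339 CPM in FA, 1056, 201 and 546 in FK and 398, 561 and 493 in WT. The SERPINF2 level was 594, 1009.6 and 586 CPM in FA, 527, 659 and 812 in FK and 664, 684 and 708 in WT. All FK replicates of PLG lay above WT, by little, at 0.33 (SE 0.37, adjusted p = 0.613). CPB2 had its highest value of all 9 replicates in FK 1 and its lowest in FK 2. SERPINF2 overlapped WT, and its change in FK was -0.041 (SE 0.32, adjusted p = 0.950).

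In FA no complement or clotting gene was called against WT. Of the 35 genes, 14 had a positive and 21 a negative change, with medians of -0.098 for complement, 0.0042 for clotting and -0.025 for the third class, against 0.0035 over all genes. Beside MASP1, F8 and F5, the smallest p of each class belonged to C8A at -0.54 (SE 0.52, adjusted p = 0.785), C9 at 0.40 (SE 0.68, adjusted p = 0.896), F12 at -0.53 (SE 0.26, adjusted p = 0.529), PROC at -0.37 (SE 0.39, adjusted p = 0.810), CPB2 at -0.28 (SE 0.52, adjusted p = 0.907) and SERPINF2 at 0.091 (SE 0.32, adjusted p = 0.954). In FA replicate 1, 26 of 35 genes were below all WT replicates, as were 32.5% of all genes. In FA replicate 2, 19 of 35 were above all WT replicates, as were 32.7% of all genes. C9 and SERPINF2 took the opposite sign without FA replicate 2, at -0.10 and -0.22. The FA and FK comparisons with WT share the WT replicates, so that the same WT values enter both.

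The comparison of FA with FK rests on the same FK replicates as that of FK with WT. FGA, FGB, FGG and KNG1 were lower in every FA replicate than in any FK replicate, 4 of 35 against 8.99% of all genes, and 0 were higher in every FA replicate (8.24%). The changes were -1.36 (SE 0.56, adjusted p = 0.206) for FGA, -1.08 (SE 0.53, adjusted p = 0.269) for FGB and -1.25 (SE 0.52, adjusted p = 0.210) for FGG. DESeq2 called these 3 lower in FA (adjusted p = 0.0148, 0.0175 and 0.00883). The largest positive difference among the anticoagulants was that of PROC, at 0.95 (SE 0.39, adjusted p = 0.206). C7 stood at 0.80 (SE 0.37, adjusted p = 0.242), MBL2 at 0.87 (SE 0.52, adjusted p = 0.353), C2 at 0.64 (SE 0.48, adjusted p = 0.456), SERPIND1 at 0.46 (SE 0.34, adjusted p = 0.445) and CPB2 at -0.59 (SE 0.52, adjusted p = 0.532). Without FK replicate 3, 12 of the 35 were called between FA and FK, against 34.5% of all genes. C1S, C2, C5, C7, MBL2, F7, KLKB1, PROC and SERPIND1 were higher in FA, 9 of 35 against 16.4% of all genes, and the 3 fibrinogen genes were lower (18.1% of all genes). With FK replicate 3 as the 1 FK replicate, MBL2, C2 and SERPIND1 had changes of -0.059, -0.071 and -0.063.

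The rest of the pathway was read from 5 further lists. Of 24 tested complement genes outside the 35 (of 31 listed), 0 were called between FK and WT, where 4.77% of all genes were. CD55, which dissociates convertases on host cells, had the smallest p at 1.19 (SE 0.33, adjusted p = 0.0651). An unadjusted p under 0.05 was found for 8 of the 24, against 26.9% of all genes. Of 21 tested clotting-related genes (of 26), 2 rose and 0 fell in FK, where 3.04% of all genes rose and 1.73% fell. THBS1 had 6.99, 6.17 and 8.22 CPM in FA, 289, 314 and 13.4 in FK and 7.20, 5.51 and 7.61 in WT. THBS1, thrombospondin-1 of platelet granules and injured tissue, rose at 4.92 (SE 0.95, adjusted p = 0.0368), most in FK replicates 1 and 2, with FK replicate 3 also above WT. Platelet markers were high in FK replicates 1 and 2, and their part in the THBS1 level was not tested. ANXA5 stood at 40.9, 69.4 and 35.8 CPM in FA, 79.5, 49.2 and 42.6 in FK and 14.7, 20.3 and 17.9 in WT. ANXA5, which covers the phosphatidylserine on which clotting complexes assemble, rose at 1.70 (SE 0.33, adjusted p = 0.0368) and was high in FK replicate 3 too. Of 8 tested genes of the vitamin K cycle and of secretion (of 9), 0 were called in FK (4.77% of all genes), with NQO1 at 0.75 (SE 0.26, adjusted p = 0.111).

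Of 20 tested regulators (of 21), 2 rose and 0 fell in FK, against the same 3.04% and 1.73% of all genes. The STAT3 level was 202, 365 and 268 CPM in FA, 321, 358 and 426 in FK and 143, 103 and 165 in WT. STAT3, the transcription factor of the interleukin-6 signal, rose at 1.43 (SE 0.30, adjusted p = 0.0414), with all FK replicates above WT. SOCS3 had 5.81, 29.8 and 9.97 CPM in FA, 58.5, 78.6 and 16.8 in FK and 6.71, 6.02 and 2.45 in WT. SOCS3, its feedback inhibitor, rose at 3.34 (SE 0.77, adjusted p = 0.0486). These calls were not stable: with each of the 9 replicates left out in turn, ANXA5 was called in 2 fits (without FA replicate 2 and without FK replicate 3) and STAT3, SOCS3 and THBS1 in 1 (without FK replicate 3). With FK replicate 3 as the 1 FK replicate the changes were 1.24 for ANXA5, 1.61 for STAT3, 1.70 for SOCS3 and 0.95 for THBS1. Of 12 tested acute phase genes (of 14), 0 were called in FK (4.77% of all genes), and LBP, which binds bacterial lipopolysaccharide, had the smallest p at 3.06 (SE 0.77, adjusted p = 0.0544). In FK, 10 of the 12 acute phase genes had a positive and 2 a negative change, and of the 20 regulators 11 and 9. The STAT3, SOCS3 and LBP values stood above WT in all 3 FK replicates, as did 13.9% of all genes. STAT3 did so in all 3 FA replicates as well (12.5% of all genes), where the fibrinogen genes did not, and a link between them was not tested. In FA, 0 genes of the 5 lists were called against WT (0.167% of all genes). The smallest p of each list belonged to C1QC at -0.98 (SE 0.27, adjusted p = 0.291), ANXA5 at 1.47 (SE 0.32, adjusted p = 0.186), NQO1 at 1.79 (SE 0.27, adjusted p = 0.0514), STAT3 at 1.02 (SE 0.30, adjusted p = 0.305) and SAA3 at 5.76 (SE 2.43, adjusted p = 0.472). SAA3, a serum amyloid A gene whose similar copies make its count uncertain, stood at 2.43, 1349 and 1.77 CPM in FA and 7.59, 12.1 and 5.36 in WT, so that its change rests on FA replicate 2.

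**Figure D5:**
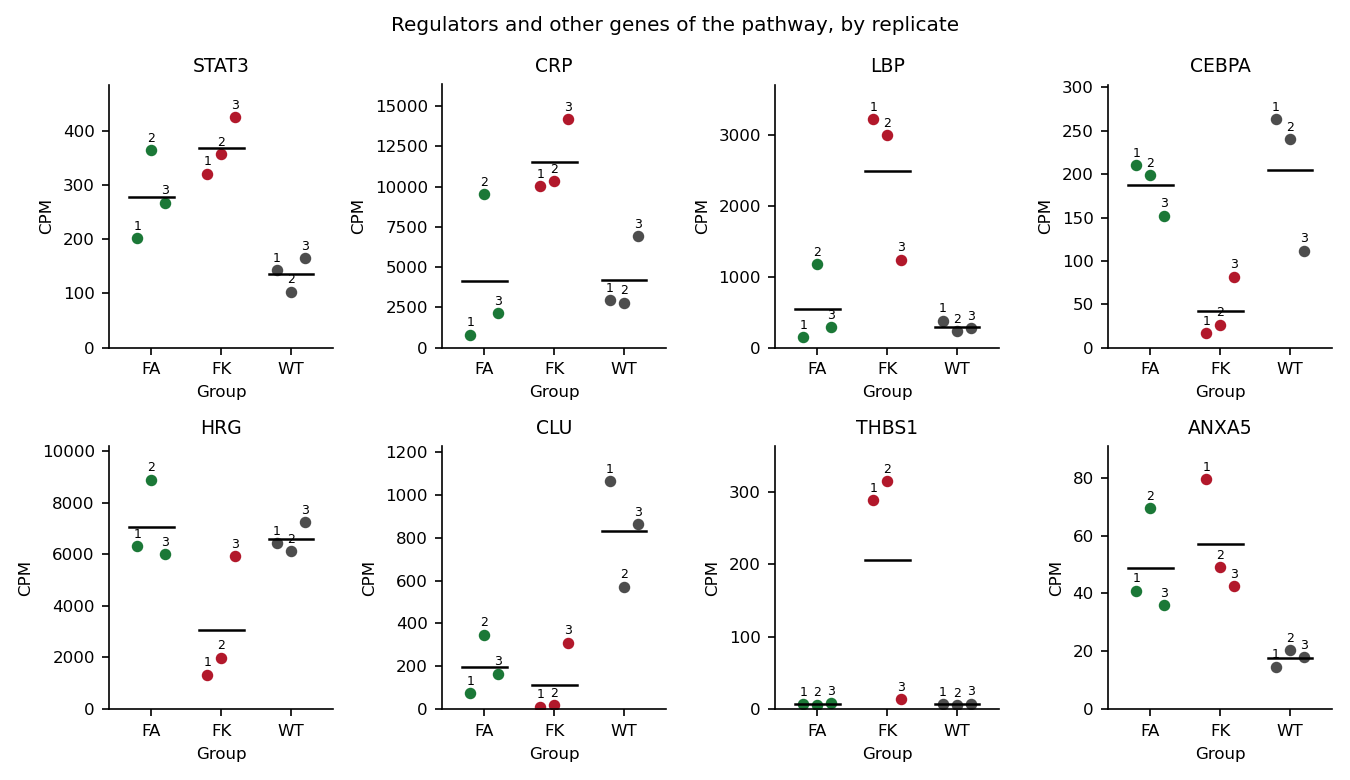
CPM of STAT3, CRP, LBP, CEBPA, HRG, CLU, THBS1 and ANXA5 in each replicate (points) of FA, FK and WT, with the mean of the group as a line. STAT3, CRP, LBP and ANXA5 lie above WT in all FK replicates, as do 13.9% of all genes. CEBPA, CLU and HRG lie below WT in all FK replicates, as do 13.4% of all genes, and furthest in FK replicates 1 and 2.

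Between FA and FK, 0 genes of the 5 lists were called (0% of all genes). VSIG4, a complement receptor of macrophages, had -1.30 (SE 0.29, adjusted p = 0.115), THBS1 -4.85 (SE 0.95, adjusted p = 0.115), NQO1 1.05 (SE 0.26, adjusted p = 0.115), CEBPA 2.17 (SE 0.58, adjusted p = 0.115) and AGT, angiotensinogen, -1.56 (SE 0.50, adjusted p = 0.135). The macrophage markers (8 of 10 found), which include VSIG4 itself, summed to 274, 324 and 219 CPM in FA, 611, 472 and 332 in FK and 576, 437 and 436 in WT. CLEC4F was at 0 in 6 of the 9 replicates. Since the sums hold VSIG4, they are no separate measure of macrophages, and the part of macrophages in the VSIG4 difference was not tested. CEBPA, HRG, CLU and CRP were chosen after their values were seen. CEBPA stood at 210.1, 199 and 152 CPM in FA, 16.9, 26.4 and 81.8 in FK and 264, 241 and 112 in WT. CEBPA is a transcription factor of hepatocyte genes. The HRG level was 6309, 8895 and 6015 CPM in FA, 1329.8, 1989 and 5936 in FK and 6424, 6110.0 and 7256 in WT. CLU had 73.4, 348 and 165 CPM in FA, 11.8, 18.4 and 311 in FK and 1065, 572 and 864 in WT. HRG, histidine-rich glycoprotein, binds heparin and plasminogen, and CLU, clusterin, blocks the membrane pore of complement. All 3 genes were lowest in FK replicates 1 and 2, and CLU was low in FA as well. CRP stood at 797, 9527 and 2126 CPM in FA, 10023, 10341 and 14197 in FK and 2931, 2782 and 6917 in WT. CRP, C-reactive protein, which activates C1, was above WT in FA replicate 2 and in all FK replicates, as were 13.9% of all genes in FK.

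The 2 genes found under other identifiers are LOC100343920 and LOC100347263, named C4BPA and F13B by RefSeq's genes for assembly mOryCun1.1. The LOC100343920 level was 295, 702 and 391 CPM in FA, 319.7, 181 and 821 in FK and 606, 455 and 597 in WT. C4BPA encodes the alpha chain of C4b-binding protein, an inhibitor of the classical pathway, with FK replicate 2 the lowest and FK replicate 3 the highest of the 9. LOC100347263 had 331, 235 and 269 CPM in FA, 305, 154 and 277 in FK and 202, 286 and 315 in WT. F13B encodes the carrier subunit of factor XIII, the enzyme that cross-links fibrin, and its FK replicate 2 alone lay below WT. Their changes in FK were -0.33 (SE 0.55, adjusted p = 0.741) for C4BPA and -0.13 (SE 0.32, adjusted p = 0.833) for F13B.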

How the data were processed

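Gene-level values of 36 rabbit liver libraries were read from 1 deposited table of 23394 genes. As deposited they are whole numbers, read here as estimated counts. Per the submitters' processing notes Salmon 0.14.1 was used, with its role, any rounding and the build not given in the sources used here. Per the labels' protocols, trypsinized livers were extracted with TRIzol and libraries made with a TruSeq RNA kit. Whether strand was kept is not stated, so reads of overlapping genes on opposite strands, and of similar copies, may be divided wrongly between them.

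The genes, lists and tests were chosen with earlier results of these data known. Groups and set numbers come from the titles. Libraries held 15.1 to 22.5 M counts in FA, 11.7 to 16.1 M in FK and 14.2 to 18.7 M in WT. The 4 libraries of a set were summed, and edgeR 4.0.16 under R 4.3.3 was run on the 9 sums in 1 fit. Scaling was by TMM, 14939 genes passed filterByExpr (by group), and tests were quasi-likelihood F tests. Adjusted p-values are Benjamini-Hochberg values over all of them, and a gene is said to rise or fall at an adjusted p under 0.05. CPM values are scaled by TMM, and SE is the standard error of a log2 change. Changes are given for the 3 genes of each class with the smallest p and, in the other lists, for called genes or the gene with the smallest p; further genes were chosen after their values were seen. The procedure was tested on simulated data. Alternatives were DESeq2 1.42.0, RLE scaling, no filter on low counts, a fit of the compared groups alone, a replicate block, limma-voom (limma 3.58.1) on the 36 libraries and each replicate left out. The fit without FK replicates 1 and 2 was added after the data were seen. Identifiers were matched to names through RefSeq's genes for assembly mOryCun1.1. Python 3.11.15 with matplotlib 3.10.9 drew the figures.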

Additional observations from a re-analysis of the deposited data

How the results depend on the processing

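The count of 0 of the 35 genes called by edgeR held in every comparison with RLE scaling, without a filter on low counts and in a fit of the compared groups alone. Between FK and WT these fits called 685, 636 and 43 genes over the whole table, against 712 in the main fit. Where so few genes are called, 0 of 35 says little about the 35. Without FK replicates 1 and 2, an alternative added after the values were seen, the FK group is 1 replicate, assumed to vary like the others, and its 0 calls say nothing about stability. Between FK and WT, DESeq2 called 5 of the 35, limma-voom on the 36 libraries 15, and the fits with 1 replicate left out 0 to 14, where 14 came without FK replicate 3. Over all genes that last fit called 5396, and the others with 1 replicate left out called 22 to 154. Between FA and WT limma-voom called 1. Between FA and FK, DESeq2 called 3, limma-voom 11, and the fits with 1 replicate left out 0 to 12, where 12 came without FK replicate 3. Of the 9 genes named in each comparison, DESeq2 called 4 between FK and WT and 3 between FA and FK (16.5% and 11.1% of all genes). Limma-voom called 7, 1 and 7 between FK and WT, FA and WT, and FA and FK (19.1%, 3.7% and 16.8%). The fits with 1 replicate left out called 0 to 7 between FK and WT and 0 to 8 between FA and FK. The most came without FK replicate 3, where 34.9% and 34.5% of all genes were called. The 9 were picked for the smallest p of their class in these same data, so that a higher share among them is built in. The cause of the differences between fits was not tested. With the set number as a replicate block, 0 of the 35 genes were called in each comparison, where 47 genes of the whole table were called between FK and WT. Deviations of same-numbered sets from their group means correlated at -0.087 to 0.099, and those of sets with different numbers at -0.095 to 0.115. With 3 sets a group, and FK split as described, this cannot show whether same-numbered sets share more than a number.

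Of 432 changes of named genes under the alternatives, 388 kept sign and side of the threshold, 37 passed it and 7 took the opposite sign. No named gene was called in the main fit, so that to keep its side means to stay uncalled. Fits with few calls over all genes favour that, and the 432 include the fit without FK replicates 1 and 2, so the 388 are no measure of stability. Without FK replicates 1 and 2 the opposite signs were those of SERPIND1 between FK and WT (0.027) and of MBL2 (-0.059), C2 (-0.071) and SERPIND1 (-0.063) between FA and FK. Over the fits with 1 replicate left out, C9 ran from -0.10 to 0.77 and SERPINF2 from -0.22 to 0.23 between FA and WT, and CPB2 from -0.997 to 0.10 between FA and FK. With RLE scaling 10 of the 35 genes were above and 25 below WT in FK, against 11 and 24 with TMM. A search of promoter motifs was not run. With 3 sets a group and such unlike FK replicates, a difference under the threshold is not shown to be absent.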
